A study of Petunia x hybrida with 9 samples.

Results

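ABC transporters were taken as the petunia loci whose closest tomato protein is described, before its first domain identifier, as an ABC transporter, an ATP-binding cassette protein, a multidrug resistance protein or a pleiotropic drug resistance protein. The rule found 413 of the 94534 loci of the assembly. They came from 137 assembled genes and matched 90 tomato proteins. The fourth wording matched 0 loci. A name is therefore that of the nearest tomato protein, at a median identity of 85.64 percent, and not of a petunia gene.

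ABC transporters couple the hydrolysis of ATP in a pair of nucleotide-binding domains to the passage of a substrate through membrane domains. In plants the letters A to G name subfamilies. Members of the G subfamily, either full-size or half-size proteins that pair with a partner, carry waxes, cutin precursors, hormones and terpenoids across the plasma membrane. Members of the C subfamily work mostly at the vacuole and take up conjugates and pigments. In petunia corollas a G subfamily member, PhABCG1, is known to help volatile phenylpropanoids and benzenoids leave the cell, and the cuticle beyond it is a further barrier for scent. The files do not say which locus is PhABCG1.

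The libraries came from corollas of Petunia × hybrida cv. Mitchell, a white, strongly scented line, collected at 20 h on day 2 after the flowers opened, with RNA from a minimum of 8 corollas. There were 3 groups of 3 libraries, namely wild type and the lines A4 and A9, both labelled as overexpressors of PhADT, an arogenate dehydratase, which makes phenylalanine. The series title calls the transgene a site-directed mutant, and R353A is given as the mutation site of all 9 libraries, wild type included. The sources used here give neither the promoter nor the number of transformation events behind a line. They do not say that replicates were separate plants, so the p-values reflect only the scatter among these samples, which could be technical.

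The libraries labelled A4 went against their label. The dehydratase locus XLOC_018765 stood at 80.8 to 108.2 FPKM in A9, at 0 to 0.0579 FPKM in the libraries labelled A4 and at 0 to 0.0389 FPKM in wild type. FPKM is the number of fragments per kilobase of locus, scaled to the fragments of the library. The sum of the 19 loci annotated as dehydratases stood at 2913 to 4039 FPKM in wild type, at 2091 to 2407 in the libraries labelled A4 and at 3183 to 3836 in A9. Every direction given for A4 rests on the label. Depth, recovered from the steps between low values, ran from 30600000 to 43100000 fragments a library. Between 7 and 10 members were at 0 in a wild-type library, 1 to 3 in a library labelled A4 and 5 to 7 in A9. In a list of scent enzymes, 29 of 29 loci were measured. Their sums were 15490 to 20360 FPKM in wild type, 12310 to 15110 in the libraries labelled A4 and 16190 to 19620 in A9. The list was led by a phenylalanine ammonia-lyase (XLOC_082237, mean 3276 FPKM), and these levels do not by themselves identify the tissue as corolla. Petal identity genes were not checked, because the descriptions hold none of the names searched. The green tissue list, 52 of 74 loci measured and 0 at zero throughout, had sums of 991 to 1267 FPKM in wild type, of 566 to 930 in the libraries labelled A4 and 501 to 798 in A9. The pollen list, 39 of 60 loci measured and led by profilins, summed to 795 to 904, 653 to 713 and 699 to 765 FPKM in the same order. The carpel list, 2 loci with 0 measured, summed to at most 1.76 FPKM in a library and is too short to judge carpel tissue. The part of these shifts in the results below was not tested, and in whole corollas fewer cells of a type and less RNA per cell cannot be told apart.

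Of the 413 members, 205 averaged 1 FPKM or more across the 9 libraries and are called measured. They belonged to 78 assembled genes, and their median was 3.90 FPKM beside 3.42 FPKM for all 53284 loci measured. The other 208 had means of 0.0700 to 0.985 FPKM. Only 19 members reached 20 FPKM, and 4 reached 100 FPKM.

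By name, 87 loci (47 measured) were G family members, 55 (45 measured) were ATP-binding cassette proteins without a subfamily letter, 53 (21 measured) were multidrug resistance proteins of the ABC transporter family, and 40 (12 measured) were C family members. A further 36 loci (33 measured) were described as ATP-binding proteins of ABC transporters and 38 (10 measured) as permeases. The 38 loci of 1 assembled gene described as a lipid A ABC transporter all averaged under 1 FPKM. There were 2 A family loci, 1 of them measured.

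Part of the list is not ABC by domain. The 57 loci named multidrug resistance protein mdtK (32 measured) carry MATE domains, the mark of a separate family of ion-driven exporters. The 2 loci named multidrug resistance protein 2 carry a major facilitator domain, and the 2 named SufB belong to an iron-sulfur cluster assembly complex of plastids. Of the loci named G family member 3, 8 carry the domain of an enzyme of phospholipid synthesis in place of an ABC domain, and the 3 loci named Abc transporter family protein carry a nucleic acid binding fold. In the other direction, 179 loci with an ABC domain, 86 of them measured, bear other names such as MacB or msbA and were not taken by the rule.

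One gene dominated the RNA of these loci. XLOC_036854, whose closest tomato protein is ABC transporter G family member 11, was measured at 1889, 2191 and 2419 FPKM in the wild-type libraries. It stood at 785, 947 and 723 FPKM in the libraries labelled A4, and at 1163, 991 and 1061 FPKM in A9. All 6 libraries of the lines lay below all wild-type libraries, and those labelled A4 lay below those of A9. In Arabidopsis, ABCG11 is a half-size transporter needed for the export of wax and cutin lipids to the cuticle.

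The fall of XLOC_036854 was 2.65-fold in the libraries labelled A4 (log2 change -1.41, SE 0.13, limma adjusted p = 9.14e-05) and 2.02-fold in A9 (log2 change -1.01, SE 0.13, limma adjusted p = 0.00104). Log2 changes are differences in log2(FPKM + 1), which understate the change of low loci, while folds are ratios of mean FPKM. The difference between the lines did not pass the test (log2 change -0.39, SE 0.13, limma adjusted p = 0.0706), and it did so without the A4 replicate 2 library (limma adjusted p = 0.0473). By mean level the locus ranked 19 among all loci in wild type, 69 in the libraries labelled A4 and 63 in A9.

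Its assembled gene holds 3 loci, which may share reads, and they moved alike. XLOC_036855 fell by 1.41 on the log2 scale in the libraries labelled A4 and by 1.02 in A9, from 1165 ± 129 FPKM (SD, n = 3) in wild type. XLOC_036853, a shorter locus of 722 bases, fell by 1.49 and 0.90 from 541 ± 30.6 FPKM (SD, n = 3). The falls of both loci against wild type passed the test under each alternative that was run. XLOC_036853 was also lower in the libraries labelled A4 than in A9 (log2 change -0.59, SE 0.14, limma adjusted p = 0.0231), a call lost without A4 replicate 3 (0.055) and without A9 replicates 1 and 3 (0.0749 and 0.0564).

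**Figure D1:**
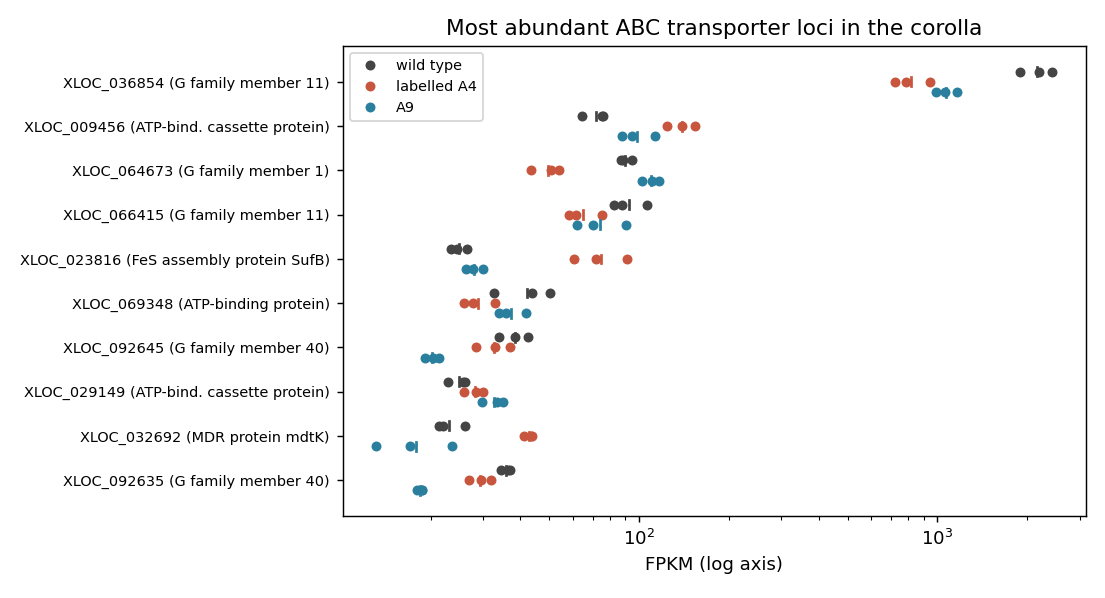
FPKM (log axis) of the 10 members with the highest mean, 1 locus per assembled gene; points are libraries and vertical ticks are group means (n = 3). XLOC_036854 stands apart at 723 to 2419 FPKM, and its wild-type libraries lie above those of both lines.

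The sum over all members followed this gene. It stood at 5207, 5649 and 6085 FPKM in wild type, at 3280, 3491 and 3124 FPKM in the libraries labelled A4 and at 3770, 3409 and 3503 FPKM in A9. The gene of XLOC_036854 held 66.3, 69.1 and 70.1 percent of the sum in wild type, 42.4, 48.2 and 40.9 percent in the libraries labelled A4, and 55.4, 52.6 and 54.9 percent in A9. Without it, the other members had sums of 1745 to 1821 FPKM in wild type, of 1808 to 1890 in the libraries labelled A4 and 1579 to 1683 in A9, so wild type and the libraries labelled A4 overlapped, while all A9 libraries lay below wild type. The plot of summed FPKM shows both parts in each library.

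**Figure D2:**
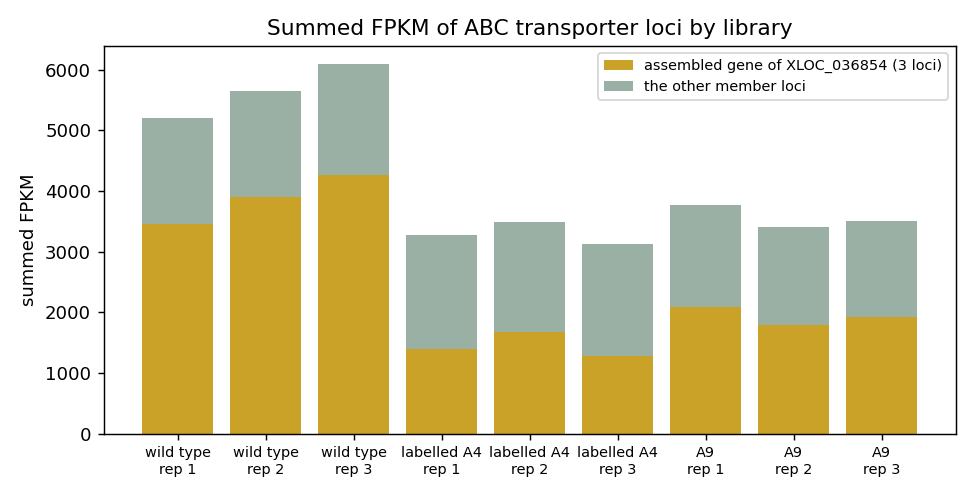
Summed FPKM of all 413 members in each library, split into the 3 loci of the gene of XLOC_036854 and the other members. The totals run from 5207 to 6085 FPKM in wild type and from 3124 to 3770 FPKM in the libraries of the lines, while the part outside this gene lies between 1579 and 1890 FPKM.

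Counted by locus, 51 of the 205 measured members were higher in the libraries labelled A4 than in wild type and 48 were lower, at an adjusted p under 0.05 in limma. That is 24.9 and 23.4 percent, beside 15.6 and 16.6 percent of all loci tested. In A9, 18 members were higher and 37 lower, which is 8.78 and 18 percent beside 8.98 and 10.3 percent of all loci. Between the lines, 51 members were higher in the libraries labelled A4 than in A9 and 9 were lower, which is 24.9 and 4.39 percent beside 9.91 and 8.13 percent of all loci. Without the names of other families, 170 members remained. Of these, 34 were higher and 40 lower in the libraries labelled A4 (20 and 23.5 percent), 9 higher and 30 lower in A9 (5.29 and 17.6 percent), and 40 higher and 8 lower between the lines (23.5 and 4.71 percent).

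The median log2 change of the members was 0.03 in the libraries labelled A4, -0.12 in A9 and 0.14 between the lines, beside -0.04, -0.01 and -0.02 over all loci. Loci of an assembled gene may share reads, so these counts repeat genes. Counted once per assembled gene, by the length-weighted mean of its loci, of 73 genes that averaged 1 FPKM or more, 26 were higher and 14 lower in the libraries labelled A4, beside 18 and 15.6 percent of all genes. In A9 there were 9 of each, or 12.3 percent in either direction, beside 11.3 and 10 percent of all genes. At this threshold the excess of falls in A9 thus shrank when counted by assembled gene. By tomato protein, 9 of 68 were higher and 14 lower in A9, and the share over all proteins was not computed. With at least 2-fold in addition, 1 of the 73 genes was higher and 3 were lower in A9, beside 933 and 435 of all 23239 genes. Between the lines 22 genes were higher in the libraries labelled A4 and 4 were lower, beside 10.9 and 9.11 percent of all genes. Both comparisons with wild type use the same 3 wild-type libraries.

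With a change of at least 2-fold on the log2(FPKM + 1) scale in addition to the adjusted p, 25 members were called in the libraries labelled A4, 11 higher and 14 lower. That is 12.2 percent, 5.37 higher and 6.83 lower, beside 7.53 percent of all loci (4.99 percent higher and 2.54 percent lower). In A9 these were 13 members, 2 higher and 11 lower, or 6.34 percent, 0.976 higher and 5.37 lower, beside 4.79 percent of all loci (3.12 and 1.67 percent). Between the lines they were 15 members, 12 higher and 3 lower, or 7.32 percent, 5.85 higher and 1.46 lower, beside 3.91 percent of all loci (2.2 and 1.72 percent).

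**Figure D3:**
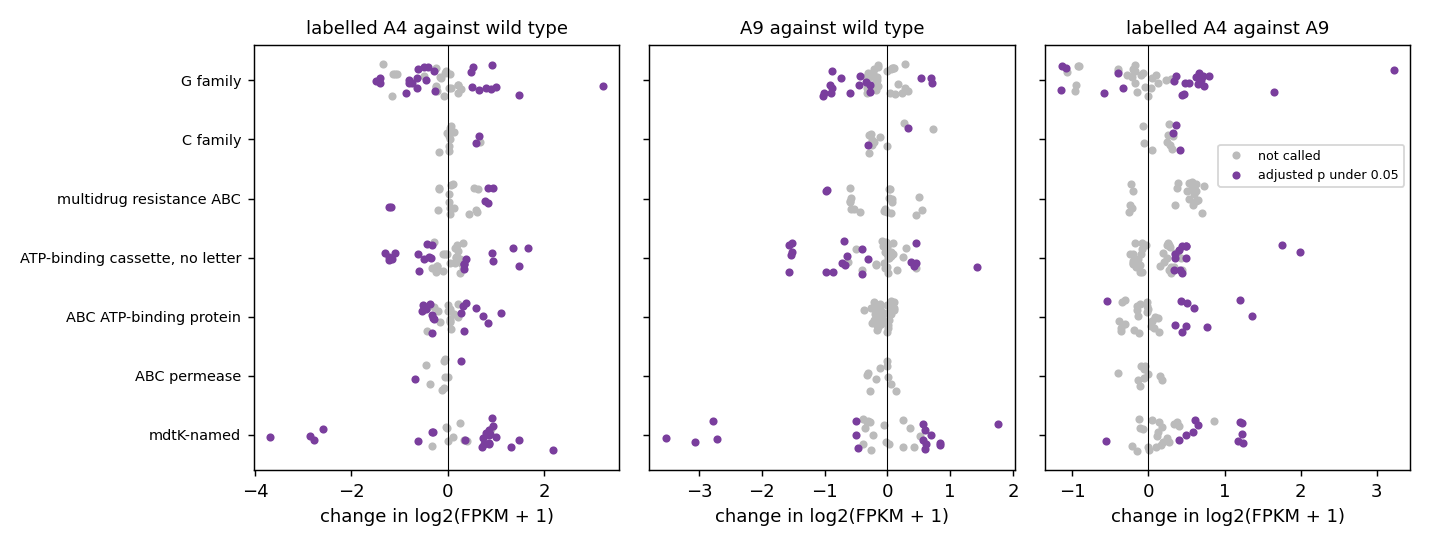
Change in log2(FPKM + 1) of each measured member in 7 name classes, for the 3 comparisons (purple: adjusted p under 0.05; grey: not called). The G family and the mdtK-named loci spread to both sides, and no ATP-binding protein or permease locus is called in A9 against wild type.

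In the G family, 10 of 47 measured loci were higher and 15 lower in the libraries labelled A4, or 21.3 and 31.9 percent beside 15.6 and 16.6 percent of all loci. In A9, 3 were higher and 13 lower, or 6.38 and 27.7 percent beside 8.98 and 10.3 percent. The median log2 change was -0.23 and -0.18. Counted by assembled gene, 6 of 20 genes had a locus that was higher and 5 a locus that was lower in the libraries labelled A4, against 1 and 4 in A9. Of all 24463 assembled genes with a measured locus, these were 4930 and 4479, against 3163 and 2957 in A9. Between the lines, 16 loci were higher in the libraries labelled A4 and 6 were lower, or 34 and 12.8 percent beside 9.91 and 8.13 percent of all loci.

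A second gene with the name G family member 11, at a lower level and with 97.15 percent identity to its tomato protein, gave less clear values. XLOC_066415 stood at 107, 82.5 and 87.5 FPKM in wild type, at 75.3, 61.4 and 58.4 FPKM in the libraries labelled A4 and at 90.7, 70.1 and 61.7 FPKM in A9. Wild type did not overlap the libraries labelled A4 but overlapped A9. The change in the libraries labelled A4 was -0.50 (SE 0.17, limma adjusted p = 0.0476) and lost its call in 9 of 19 alternatives. Among these were the fits without wild-type replicates 1, 2 and 3 (limma adjusted p = 0.147, 0.0578 and 0.0888), without A4 replicates 2 and 3 (0.121 and 0.141) and without A9 replicate 2 (0.061). In A9 the change of -0.32 was not called (limma adjusted p = 0.214), and it was called with replicate number as a block (limma adjusted p = 0.0363).

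The most abundant locus named G family member 1 took opposite sides in the lines. Of the 5 measured loci of this name, 3 were called lower in the libraries labelled A4 than in wild type. Against A9, 3 were called lower in those libraries, and in A9 against wild type 0 were called. XLOC_064673 was at 88.2, 94.6 and 87.1 FPKM in wild type, at 43.4, 54.0 and 50.7 FPKM in the libraries labelled A4 and at 111, 116 and 103 FPKM in A9. The libraries labelled A4 were all below, and those of A9 all above, the wild-type libraries. The fall in the libraries labelled A4 was 1.82-fold (log2 change -0.86, SE 0.10, limma adjusted p = 0.000345). The value in A9 was 1.22-fold that of wild type and was not called (limma adjusted p = 0.0818). The lines differed 2.23-fold (log2 change -1.14, SE 0.10, limma adjusted p = 0.000175). In Arabidopsis, ABCG1 is known for a role in forming suberin, a lipid polymer of cell walls.

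The G family member 40 loci fell in A9. In Arabidopsis, ABCG40 is a full-size transporter that imports abscisic acid. XLOC_092635 was at 34.5, 36.2 and 36.8 FPKM in wild type, at 26.9, 31.8 and 29.4 FPKM in the libraries labelled A4 and at 18.7, 18.8 and 17.9 FPKM in A9. The 3 groups did not overlap, with A9 lowest. The fall in A9 was 1.94-fold (log2 change -0.92, SE 0.08, limma adjusted p = 0.000105), and the libraries labelled A4 were 1.59-fold above A9 (log2 change 0.64, SE 0.08, limma adjusted p = 0.00146).

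In the libraries labelled A4 the change of XLOC_092635 was -0.28 (SE 0.08, limma adjusted p = 0.0305). That call was lost without wild-type replicates 1, 2 and 3 (limma adjusted p = 0.0534, 0.0775 and 0.0958) and without A4 replicates 1 and 3 (0.0867 and 0.0714), and under 3 other alternatives. All 5 measured loci of this name were lower in A9 and all 5 were higher in the libraries labelled A4 than in A9. Of these, 4 belong to 1 assembled gene, in which other loci match other tomato proteins. XLOC_092640, an ATP-binding cassette transporter of the same assembled gene, was at 14.9 ± 0.788 FPKM (SD, n = 3) in wild type and 8.72 ± 0.916 FPKM in A9 (log2 change -0.72, SE 0.11, limma adjusted p = 0.00306).

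The locus XLOC_029602, named G family member 3 but with the domain of a phospholipid enzyme, was at 19.1 FPKM in each wild-type library. It was at 12.2, 10.7 and 10.2 FPKM in the libraries labelled A4 and at 15.2, 16.3 and 13.2 FPKM in A9. No groups overlapped. It fell 1.73-fold in the libraries labelled A4 (log2 change -0.74, SE 0.10, limma adjusted p = 0.000647), as did the other 5 measured loci of its gene. These 6 loci account for 6 of the 15 G family loci lower in the libraries labelled A4 and for 5 of the 13 lower in A9. Over the 36 measured G family loci with an ABC-2 membrane domain, 10 were higher and 9 lower in the libraries labelled A4, and 3 higher and 8 lower in A9. In percent these are 27.8 and 25, and 8.33 and 22.2, beside 15.6 and 16.6, and 8.98 and 10.3 of all loci. The call of XLOC_029602 in A9 was lost in 9 of 19 alternatives, with an adjusted p of up to 0.125, without A9 replicate 3. It was also lost without wild-type replicates 1, 2 and 3 (0.101, 0.0932 and 0.103), A4 replicate 2 (0.0584) and A9 replicate 1 (0.0777).

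Several low G family loci rose in the libraries labelled A4. XLOC_070135, named G family member 5, was at 0.371, 0.636 and 0.633 FPKM in wild type, at 2.54, 3.19 and 4.28 FPKM in the libraries labelled A4 and at 0.304, 0.321 and 0.484 FPKM in A9. Only the libraries labelled A4 stood out, 6.1-fold above wild type (log2 change 1.47, SE 0.14, limma adjusted p = 0.000122) and 9.02-fold above A9 (limma adjusted p = 0.000172). The change in A9, -0.17, was not called (limma adjusted p = 0.449). A second locus of this name, XLOC_069830, is 264 bases long, shorter than the 275 to 290 bases that the deposited scale subtracts from a locus, and no fold is given for it.

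XLOC_028342, named G family member 14, was at 2.70, 2.18 and 2.37 FPKM in wild type, at 5.53, 4.11 and 3.48 FPKM in the libraries labelled A4 and at 2.48, 1.77 and 1.98 FPKM in A9. Wild type and A9 overlapped, and the libraries labelled A4 were above both. The rise was 1.81-fold (log2 change 0.64, SE 0.15, limma adjusted p = 0.0103). In Arabidopsis, ABCG14 moves cytokinins from root to shoot. All 5 measured loci named G family member 14 were higher in the libraries labelled A4 than in A9.

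XLOC_065580, named G family member 22, rose in both lines. It was at 0.346, 0.426 and 0.543 FPKM in wild type, at 1.98, 2.02 and 1.68 FPKM in the libraries labelled A4 and at 1.13, 1.37 and 1.61 FPKM in A9. No groups overlapped. The rise was 4.32-fold in the libraries labelled A4 (log2 change 1.01, SE 0.10, limma adjusted p = 0.00011) and 3.12-fold in A9 (log2 change 0.72, SE 0.10, limma adjusted p = 0.00131). ABCG22 of Arabidopsis is known for a part in stomatal closure.

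The 6 measured loci named G family member 15 were not called in any comparison. XLOC_053224 was at 12.4, 5.92 and 11.1 FPKM in wild type, at 7.66, 1.29 and 2.50 FPKM in the libraries labelled A4 and at 11.6, 3.56 and 10.1 FPKM in A9. Replicate 2 was lowest in all 3 groups, and the groups overlapped (limma adjusted p = 0.0879 in the libraries labelled A4, 0.771 in A9 and 0.203 between the lines). With replicate number as a block, the difference of -1.07 between the lines was called (limma adjusted p = 0.0197). The 5 measured loci of G family member 7 were not called either.

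Among ATP-binding cassette proteins without a letter, 9 of 45 measured loci were higher and 12 lower in the libraries labelled A4, or 20 and 26.7 percent beside 15.6 and 16.6 percent of all loci. In A9, 5 were higher and 14 lower, or 11.1 and 31.1 percent beside 8.98 and 10.3 percent. By assembled gene the order turned in both comparisons with wild type. For A9, 4 of the 11 genes of this class held a higher locus and 3 a lower one. With the A4 label, 4 genes held a higher locus and 2 a lower one. Among all 24463 assembled genes with a measured locus, A9 had 3163 and 2957 such genes, and the A4 label 4930 and 4479. The most abundant locus of the class was XLOC_009456, with an ABC transporter-like domain. It was at 64.4, 75.9 and 75.2 FPKM in wild type, at 124, 139.6 and 154 FPKM in the libraries labelled A4 and at 87.7, 95.0 and 113 FPKM in A9. The 3 groups did not overlap, with wild type lowest. The rise in the libraries labelled A4 was 1.94-fold (log2 change 0.94, SE 0.13, limma adjusted p = 0.000715).

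In A9 the value of XLOC_009456 was 1.37-fold that of wild type (log2 change 0.45, SE 0.13, limma adjusted p = 0.0382). That call was lost in 7 of 19 alternatives, among them the fits without wild-type replicates 1, 2 and 3 (limma adjusted p = 0.124, 0.0643 and 0.0763), without A4 replicate 2 (0.0558) and without A9 replicates 2 and 3 (0.0676 and 0.115). XLOC_029149, of another assembled gene but with the same description, was at 22.9, 26.2 and 25.6 FPKM in wild type, at 25.9, 28.4 and 30.0 FPKM in the libraries labelled A4 and at 29.6, 34.9 and 33.3 FPKM in A9. Wild type and the libraries labelled A4 overlapped, and the difference was not called (log2 change 0.17, SE 0.10, limma adjusted p = 0.219). In A9 it was higher (log2 change 0.38, SE 0.10, limma adjusted p = 0.0279), a call lost without wild-type replicates 1 and 3 (0.0954 and 0.0647) and without A9 replicates 2 and 3 (0.0781 and 0.0821).

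XLOC_055828, an ATP-binding cassette transporter with an ABC-2 membrane domain and 50.27 percent identity to its tomato protein, was at 10.8, 7.76 and 10.1 FPKM in wild type. It was at 24.5, 25.7 and 35.6 FPKM in the libraries labelled A4 and at 6.43, 5.81 and 6.87 FPKM in A9. Again the lines lay on opposite sides of wild type. The rise in the libraries labelled A4 was 3-fold (log2 change 1.48, SE 0.16, limma adjusted p = 0.000207), and the lines differed 4.49-fold (log2 change 1.99, SE 0.16, limma adjusted p = 0.0001). The change of -0.51 in A9 was not called (SE 0.16, limma adjusted p = 0.0566). It was called with the replicate block (limma adjusted p = 0.0281) and in 5 other alternatives.

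XLOC_019756, another ATP-binding cassette transporter with the ABC-2 domain, was at 0.455, 0.454 and 0.472 FPKM in wild type. It was at 4.10, 2.72 and 4.32 FPKM in the libraries labelled A4 and at 2.88, 3.18 and 2.75 FPKM in A9. Both lines lay above wild type and overlapped each other. The rise was 8.07-fold in the libraries labelled A4 (log2 change 1.67, SE 0.13, limma adjusted p = 2.89e-05) and 6.38-fold in A9 (log2 change 1.43, SE 0.13, limma adjusted p = 0.000106).

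The reverse was seen in XLOC_092629, an ATP-binding cassette transporter whose closest tomato gene is numbered next to that of XLOC_055828. It was at 3.38, 2.58 and 3.11 FPKM in wild type, at 0.790, 0.569 and 0.503 FPKM in the libraries labelled A4 and at 0.382, 0.380 and 0.293 FPKM in A9. No groups overlapped. The fall was 4.87-fold in the libraries labelled A4 (log2 change -1.31, SE 0.10, limma adjusted p = 2.57e-05) and 8.59-fold in A9 (log2 change -1.57, SE 0.10, limma adjusted p = 9.13e-06). The other 6 measured loci of its gene were called lower in both lines as well. XLOC_052984, ATP-binding cassette transporter 17, was at 2.57 ± 0.115 FPKM (SD, n = 3) in wild type and fell 1.91-fold in the libraries labelled A4 and 1.51-fold in A9 (limma adjusted p = 0.000566 and 0.00834).

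Of 21 measured multidrug resistance proteins of the ABC family, 4 were higher and 2 lower in the libraries labelled A4, or 19 and 9.52 percent beside 15.6 and 16.6 percent of all loci. In A9, 0 were higher and 2 lower, or 0 and 9.52 percent beside 8.98 and 10.3 percent. The 2 that fell in both lines are loci of 1 gene. XLOC_035080 was at 10.3, 9.70 and 13.5 FPKM in wild type, at 3.92, 5.20 and 3.64 FPKM in the libraries labelled A4 and at 5.16, 4.96 and 5.27 FPKM in A9. Both lines lay below wild type. The fall was 2.63-fold in the libraries labelled A4 (log2 change -1.21, SE 0.14, limma adjusted p = 0.000313) and 2.18-fold in A9 (log2 change -0.98, SE 0.14, limma adjusted p = 0.00173).

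The most abundant locus of this class, XLOC_087014, was at 12.3 ± 0.270, 10.8 ± 1.60 and 13.0 ± 1.09 FPKM (SD, n = 3) in wild type, the libraries labelled A4 and A9. It was not called in either comparison with wild type (limma adjusted p = 0.239 and 0.679). XLOC_054505 was at 8.80, 7.97 and 8.91 FPKM in wild type and at 20.0, 10.9 and 10.8 FPKM in the libraries labelled A4, where replicate 1 alone was far above the rest. Its change of 0.58 was not called (SE 0.21, limma adjusted p = 0.0597), except without A4 replicates 2 and 3 (0.0464 and 0.0479) and with the replicate block (0.0285). The difference from A9, 0.62, was not called either (limma adjusted p = 0.0703), except with the replicate block (0.0349). XLOC_032199 rose 2.3-fold in the libraries labelled A4, from 2.23 ± 0.881 to 5.13 ± 1.26 FPKM (SD, n = 3; log2 change 0.94, SE 0.21, limma adjusted p = 0.00903). Its change of 0.55 in A9 was not called (limma adjusted p = 0.0991), except with the replicate block (0.0405) and without wild-type replicate 1 (0.0316).

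C family members, which in Arabidopsis include vacuolar carriers of glutathione conjugates and phytochelatins, had 12 measured loci. In the libraries labelled A4, 2 of them were higher and 0 lower, or 16.7 and 0 percent beside 15.6 and 16.6 percent of all loci. In A9 there was 1 in either direction, or 8.33 percent beside 8.98 and 10.3 percent. XLOC_004277, C family member 2 and the most abundant, was at 7.41, 5.93 and 7.04 FPKM in wild type, at 8.17, 6.45 and 6.48 FPKM in the libraries labelled A4 and at 6.05, 5.74 and 5.34 FPKM in A9. All groups overlapped except the lines with each other, and the changes of 0.04 and -0.21 against wild type were not called (SE 0.11, limma adjusted p = 0.803 and 0.222). Both C family loci that rose in the libraries labelled A4 are named C family member 9 and belong to 1 assembled gene. XLOC_019888 went from 1.77 ± 0.152 FPKM (SD, n = 3) in wild type to 3.36 ± 0.470 FPKM in the libraries labelled A4 (log2 change 0.65, SE 0.09, limma adjusted p = 0.000848). In A9 it stood at 2.47 ± 0.0435 FPKM (log2 change 0.33, SE 0.09, limma adjusted p = 0.0356), a call lost in 8 of 18 alternatives, the replicate block (0.0523) among them. The measured A family locus, XLOC_012729, fell from 1.34 ± 0.0713 to 0.863 ± 0.124 FPKM (SD, n = 3) in the libraries labelled A4 (log2 change -0.33, SE 0.08, limma adjusted p = 0.011).

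The loci described as ATP-binding proteins of ABC transporters, which may be subunits of larger transporters or soluble ABC proteins, gave 8 of 33 measured loci higher and 9 lower in the libraries labelled A4, or 24.2 and 27.3 percent beside 15.6 and 16.6 percent of all loci. In A9 limma called 0 in either direction, beside 8.98 and 10.3 percent of all loci. XLOC_046716 was at 7.08, 12.6 and 9.89 FPKM in wild type, at 16.2, 19.2 and 18.6 FPKM in the libraries labelled A4 and at 6.97, 7.34 and 7.25 FPKM in A9. The libraries labelled A4 were above all others. The rise over wild type was 1.83-fold (log2 change 0.84, SE 0.17, limma adjusted p = 0.00549), and over A9 it was 2.5-fold (log2 change 1.21, SE 0.17, limma adjusted p = 0.00201). XLOC_077428 shows how close the groups could be, with 11.3 ± 0.305, 11.3 ± 0.713 and 10.7 ± 0.761 FPKM (SD, n = 3) and limma adjusted p = 0.984 and 0.588 against wild type.

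SufB is a subunit of the complex that builds iron-sulfur clusters in plastids, and its description carries the words ABC transporter. The 2 SufB loci share an assembled gene but not a pattern. XLOC_023816 was at 23.5, 26.5 and 24.6 FPKM in wild type, at 60.4, 71.7 and 91.2 FPKM in the libraries labelled A4 and at 26.3, 27.7 and 30.0 FPKM in A9. The libraries labelled A4 were 3-fold above wild type (log2 change 1.53, SE 0.14, limma adjusted p = 8.22e-05) and did not overlap the others. XLOC_023817 was at 38.4 ± 2.83, 37.5 ± 1.37 and 36.4 ± 1.94 FPKM (SD, n = 3), and its changes of -0.03 and -0.07 against wild type were not called (SE 0.08, limma adjusted p = 0.818 and 0.607).

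The mdtK-named loci are exporters of the MATE family. In the libraries labelled A4, 16 of 32 measured loci were higher and 7 lower, or 50 and 21.9 percent beside 15.6 and 16.6 percent of all loci. In A9, 9 were higher and 7 lower, or 28.1 and 21.9 percent beside 8.98 and 10.3 percent. Their summed level was 256 ± 15.7 FPKM (SD, n = 3) in wild type, while it was 325 ± 5.35 in the libraries labelled A4 and 216 ± 6.42 in A9. Plant MATE proteins are known to move flavonoids into the vacuole, citrate out of roots and hormones between compartments.

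The deepest fall was that of XLOC_070104, at 9.05, 17.6 and 14.8 FPKM in wild type, at 0.0433, 0.238 and 0.0860 FPKM in the libraries labelled A4 and at 0.207, 0.206 and 0.334 FPKM in A9. Both lines were near 0 and far below wild type. The ratio of means was 113-fold in the libraries labelled A4 (log2 change -3.68, SE 0.20, limma adjusted p = 3.09e-06), or 214-fold without A4 replicate 2, and 55.6-fold in A9 (log2 change -3.52, SE 0.20, limma adjusted p = 4.21e-06). All 4 measured mdtK-named loci of its gene fell in both lines, with XLOC_070105 keeping 1.51 ± 0.710 and 1.02 ± 0.296 FPKM (SD, n = 3) of the 16.4 ± 5.56 FPKM in wild type. Another locus of that gene, XLOC_070103, is described as multidrug and toxin extrusion protein 1 and fell from 8.46 ± 2.94 to 2.22 ± 1.06 and 0.860 ± 0.206 FPKM (SD, n = 3; limma adjusted p = 0.00466 and 0.00109).

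Other mdtK-named loci rose in both lines. XLOC_090113 was at 4.85, 6.79 and 5.17 FPKM in wild type, at 18.4, 13.0 and 21.7 FPKM in the libraries labelled A4 and at 8.96, 12.3 and 11.1 FPKM in A9. The groups did not overlap, with wild type lowest and the libraries labelled A4 highest. The rise was 3.16-fold in the libraries labelled A4 (log2 change 1.48, SE 0.19, limma adjusted p = 0.00059). In A9 it was 1.92-fold (log2 change 0.84, SE 0.19, limma adjusted p = 0.0173), a call lost without wild-type replicates 1 and 3 (0.0634 and 0.0603) and without A9 replicates 2 and 3 (0.0534 and 0.0549). XLOC_036435 rose 1.84-fold and 1.59-fold from 6.70 ± 0.472 FPKM (SD, n = 3; log2 change 0.79 and 0.60, limma adjusted p = 0.000311 and 0.00246).

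The most abundant mdtK-named locus rose in the libraries labelled A4 and was not called in A9. XLOC_032692 was at 22.0, 26.0 and 21.3 FPKM in wild type, at 43.8, 41.0 and 43.4 FPKM in the libraries labelled A4 and at 13.1, 23.6 and 17.0 FPKM in A9. The libraries labelled A4 were above all others, and wild type and A9 overlapped. The rise over wild type was 1.85-fold (log2 change 0.86, SE 0.18, limma adjusted p = 0.00662) and the difference from A9 was 2.39-fold (log2 change 1.25, SE 0.18, limma adjusted p = 0.00248). The change in A9 was -0.38 (limma adjusted p = 0.174), and it was called without A9 replicate 2 (0.0219). All 5 measured loci of this gene were called higher in the libraries labelled A4 than in wild type.

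**Figure D4:**
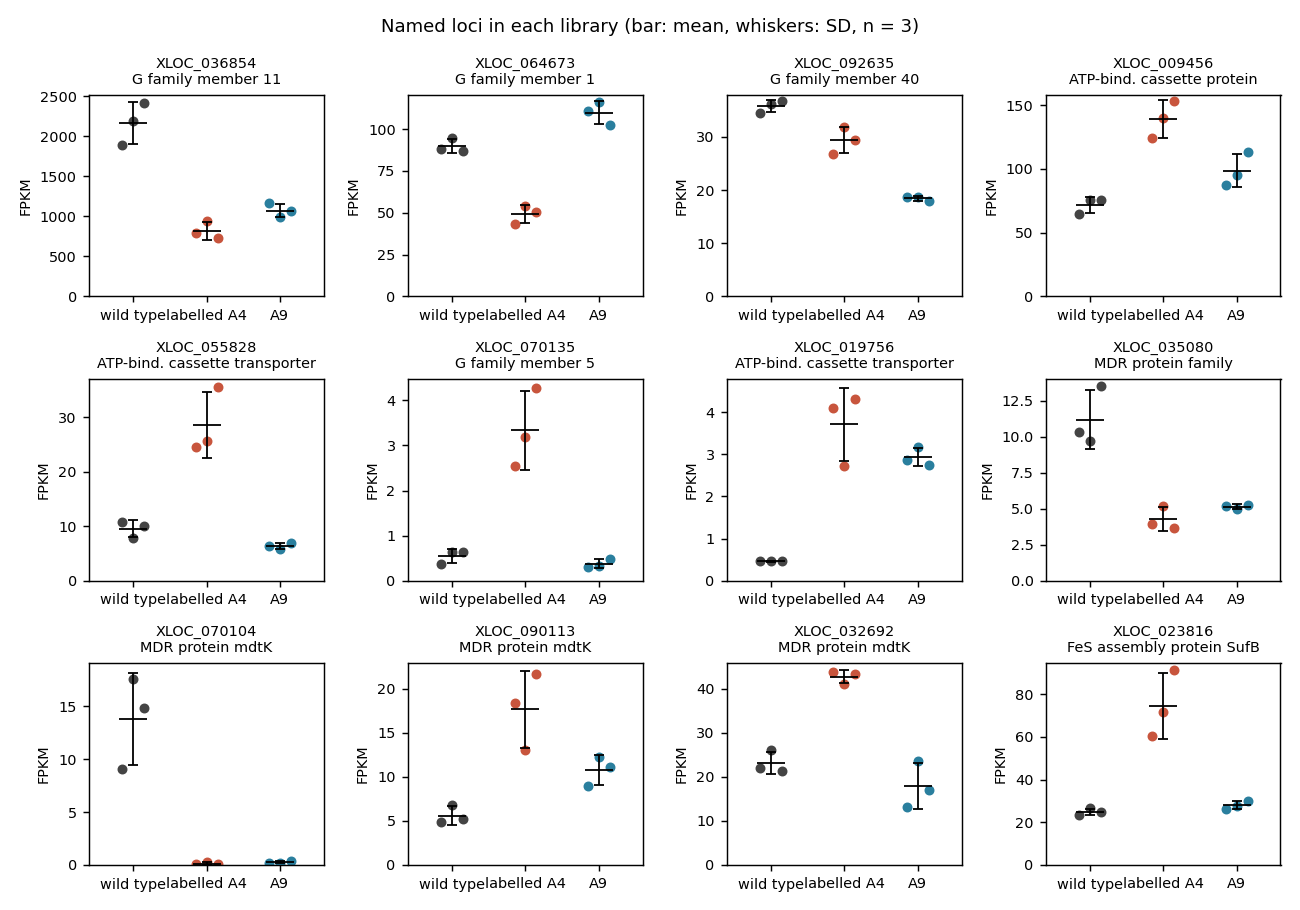
FPKM of 12 members in each library (points), with the mean and SD of each group (bar and whiskers, n = 3); the vertical axes start at 0 and differ between panels. The libraries labelled A4 and A9 share a direction for XLOC_036854, XLOC_019756, XLOC_035080 and XLOC_070104, and stand on opposite sides of wild type for XLOC_064673 and XLOC_055828.

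Genes that act beside these transporters were read from the same fit. Of 33 other measured loci named as MATE efflux proteins, 16 were higher and 2 lower in the libraries labelled A4, 3 higher and 13 lower in A9, and 17 higher and 0 lower in the libraries labelled A4 than in A9. In percent these are 48.5 and 6.06, 9.09 and 39.4, and 51.5 and 0, beside 15.6 and 16.6, 8.98 and 10.3, and 9.91 and 8.13 of all loci. Of the 16 rises in the libraries labelled A4, 11 were loci of 1 gene, and 11 of the 17 between the lines were of that gene too. The 13 falls in A9 came from 4 assembled genes, 7 of the falls from 1 of them, and the 3 rises from 3. Without wild-type replicates 2 and 3 the falls were 8 and 7, and without A9 replicates 2 and 3 they were 8 and 6. Their median log2 change in A9, 0.00, became -0.19 after quantile normalization. XLOC_081225, a MATE efflux family protein, went from 1.34 ± 0.105 FPKM (SD, n = 3) in wild type to 18.3 ± 0.844 FPKM in the libraries labelled A4 and to 6.41 ± 2.47 FPKM in A9 (limma adjusted p = 8.47e-06 and 0.000595).

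Lipid transfer proteins carry lipids through the cell wall. Of 36 measured loci, 16 were higher and 2 lower in the libraries labelled A4, and 16 higher and 0 lower in A9. That is 44.4 and 5.56 percent, and 44.4 and 0 percent, beside 15.6 and 16.6, and 8.98 and 10.3 percent of all loci. XLOC_030790, a non-specific lipid-transfer protein, went from 0.590 ± 0.139 FPKM (SD, n = 3) to 72.0 ± 9.29 FPKM in the libraries labelled A4 and to 11.5 ± 1.11 FPKM in A9 (limma adjusted p = 1.45e-08 and 3.74e-07).

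Of 76 measured loci in a list of cuticle lipid names, which also took in acyltransferases of membrane lipids, 17 were higher and 23 lower in the libraries labelled A4, and 15 higher and 13 lower in A9. In percent these are 22.4 and 30.3, and 19.7 and 17.1, beside 15.6 and 16.6, and 8.98 and 10.3 of all loci. By assembled gene the order turned in the libraries labelled A4, with 13 genes holding a higher locus and 8 a lower one, and 9 of the 23 lay in 1 acyltransferase gene. In A9 these were 14 and 7 genes, of 43 in the list. Of all 24463 assembled genes with a measured locus, 4930 held a higher and 4479 a lower locus in the libraries labelled A4. In A9 these were 3163 and 2957. XLOC_062597, a 3-ketoacyl-CoA synthase, which lengthens fatty acids for wax, fell from 191 ± 6.06 to 22.1 ± 3.47 and 28.2 ± 3.40 FPKM (SD, n = 3; limma adjusted p = 5.87e-07 and 1.1e-06). Other enzymes of the list rose, such as XLOC_089134, named CER1 after the Arabidopsis alkane-forming enzyme, from 1.06 ± 0.145 to 6.84 ± 0.943 and 9.01 ± 0.976 FPKM (SD, n = 3; limma adjusted p = 5.2e-06 and 1.69e-06). The bars of called shares set these lists beside the members.

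**Figure D5:**
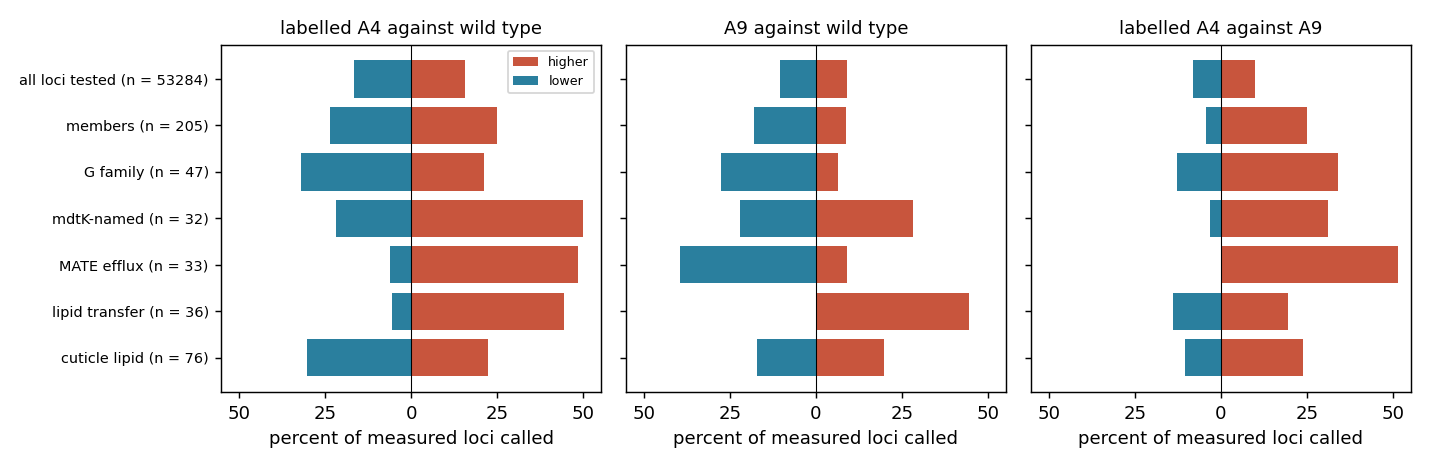
Percent of measured loci called higher (to the right) and lower (to the left) in the 3 comparisons, for all loci tested, the members, 2 name classes and 3 companion lists. In A9 against wild type the members have 8.78 percent higher and 18 percent lower, and lipid transfer proteins have 44.4 percent higher and 0 lower.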

How the data were processed

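FPKM values per locus and library are the authors' own. Their second table holds, per the file headers, the closest tomato protein of a locus, its identity in percent, its e-value and its description. The bit score and the e-value, a score of the match, stand there as deposited by the authors. The FPKM were deposited unpooled, 1 per library. FastQC 0.11.2 and Bowtie2 2.2.6 are named in the submitters' processing notes. The locus identifiers are labelled as Cufflinks identifiers. Beyond that label, the sources used here name no assembler, quantifier or scaling. From these values log2(FPKM + 1) of the 53284 loci averaging 1 FPKM or more was fitted in limma 3.58.1 (R 4.3.3) with a trended prior as 3 group means over 9 libraries, and p-values were adjusted by Benjamini-Hochberg over all of these loci. The script was tested on simulated data. Where a fragment count could be recovered, 100 percent of the low values used lay within 0.1 of a whole number, at 44.4 to 63.1 fragments per FPKM for a locus of median length. Depth limits low loci most.

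Members and lists were chosen with earlier results of these data known. The named loci are the most abundant of each class, the 10 highest of all, up to 8 largest rises and 8 falls per comparison and the little-changed abundant ones, 1 per assembled gene, with a tomato match at an e-value of at most 1e-10. A rise or fall was listed only at an adjusted p under 0.05, a group mean of at least 2 FPKM and no overlap between the groups compared. In the comparison that picked a locus, its call and its lack of overlap were thus fixed by the choice. The share of all loci without such overlap is not given here. XLOC_065580, XLOC_053224, XLOC_092640, XLOC_052984, XLOC_054505, XLOC_032199, XLOC_019888, XLOC_077428, XLOC_070105, XLOC_036435, XLOC_094074, XLOC_053341 and XLOC_012438 were added after their values were seen. Samples with the same replicate number deviated together for A9 and wild type (r = 0.248, 0.344 and 0.104 over loci). They did so for the lines as well (0.24, 0.261 and 0.249). For A4 and wild type they did so at replicates 1 and 2 but not 3 (0.229, 0.192 and -0.125). No correlation of unlike numbers is given for comparison. The labels do not say what a number marks. Pairing rests on this check alone, and the replicate block is an alternative. The sequences of the members were not used here.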

Additional observations from a re-analysis of the deposited data

Results flagged for a closer look

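For 9 measured members, all libraries labelled A4 lay on one side of all wild-type libraries and all A9 libraries on the other, and the lines differed in the fit. That is 4.39 percent of the 205, beside 805 of all 53284 loci tested, or 1.51 percent. This way of picking them was chosen after the values were seen, because no member was called in opposite directions in both lines, and the test of the difference is that between the lines. Separation of the lines was part of the pick, and of the 842 loci so separated 805 passed that test. Its adjusted p-values below therefore add no independent support. Counting the highest locus of each assembled gene leaves 5 of the 9 members. G family member 1, XLOC_064673, was lower in the libraries labelled A4 than in A9 by a log2 change of -1.14, and the ATP-binding cassette transporter XLOC_055828 was higher by 1.99. The other 3 are low. G family member 14, XLOC_094074, at 1.90 ± 0.240, 2.36 ± 0.314 and 1.47 ± 0.199 FPKM (SD, n = 3) in wild type, the libraries labelled A4 and A9, differed by 0.44 (SE 0.10, limma adjusted p = 0.0195), a call lost without A4 replicate 2 (0.0644) and without A9 replicate 3 (0.0627). The ATP-binding protein XLOC_053341, at 1.76 ± 0.0364, 2.34 ± 0.313 and 1.46 ± 0.0694 FPKM, differed by 0.44 (SE 0.08, limma adjusted p = 0.00734). The mdtK-named XLOC_012438, at 1.07 ± 0.182, 0.675 ± 0.176 and 1.46 ± 0.0577 FPKM, differed by -0.56 (SE 0.10, limma adjusted p = 0.00604).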

How the results depend on the processing

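The counts of members called were 99, 55 and 60 for the libraries labelled A4 against wild type, A9 against wild type and the lines against each other. In that order they became 43, 28 and 28 with loci of at least 5 FPKM, 40, 18 and 26 by assembled gene, 39, 23 and 25 by tomato protein, and 25, 13 and 15 with a change of at least 2-fold. Without names of other families, by assembled gene, they became 28, 10 and 21, an alternative chosen after seeing the data. All of these test fewer units or ask for more. Leaving out 1 library at a time gave 77 to 99, 37 to 58 and 34 to 57. The count between the lines fell most without A4 replicate 3 (38), A9 replicate 1 (37) and A9 replicate 3 (34). Other scalings, pseudocounts of 0.1 and 0.5, no filter and a prior without a trend kept the counts within 1.5 times. Scaling by median ratios over the tested loci, also added after seeing the data, gave 96, 54 and 61. Without names of other families they were 74, 39 and 48. With the replicate block the counts were 110, 68 and 72. In the same order, 33.5, 21.4 and 20 percent of all assembled genes were called. At 2-fold, 7.53, 4.79 and 3.91 percent of all loci were called. Scaling over the tested loci called 9147 of all 53284 loci higher and 7534 lower in the libraries labelled A4. In A9 these were 5236 and 4895, and between the lines 5650 and 4046. For the other refits no share over all loci is given here, and their counts do not show whether members or all loci moved. Among 210 pairs of a named locus and a comparison, for 70 loci, the block lost 7 calls and gained 12. Those of XLOC_069348 and XLOC_012438 in the libraries labelled A4 were among the lost (limma adjusted p = 0.0552 and 0.0613), as were XLOC_019888 in A9 and between the lines (0.0523 and 0.0542) and, between the lines, XLOC_090113 (0.0608), XLOC_092630 (0.0616) and XLOC_069351 (0.0553). Of the gained, XLOC_053224 in the libraries labelled A4 reached a limma adjusted p of 0.00484. At this locus replicate 2 was lowest in every group. Over all loci the numbers of A4 and wild type did not all deviate together (r = 0.229, 0.192 and -0.125). Of the 70 named loci, 59 were members, and many were picked for being called or after their values were seen. The share of calls kept among them therefore does not describe members at large. Of 125 pairs called, 92 were kept under all alternatives run and 33 lost under at least 1. The direction turned for 1, the cuticle list locus XLOC_083897 in A9, whose change became -0.12 under quantile normalization (limma adjusted p = 0.477), and the cause was not tested. Depth limits the members under 1 FPKM, which were not tested.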
